A study of Mus musculus with 39 samples.

Results

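Macrophage marker genes were read in left ventricular tissue of mouse hearts that carried a mutation of Pln, the gene for phospholamban, or had an ischemic injury. The set held 34 genes of the 38293 in the count table, chosen by symbol, and all 34 matched 1 gene ID each. By role, 6 were genes of resident macrophages (Lyve1, Timd4, Folr2, Cd163, Mrc1 and F13a1), 21 were genes of macrophages and other myeloid cells in general, 3 were lipid-associated (Lgals3, Trem2 and Gpnmb) and 3 mark recruited or activated cells (Ly6c2, Chil3 and Arg1). Cbr2, a carbonyl reductase that often accompanies resident macrophage genes, was kept apart. The comparison of interest was between the resident genes and the others across the groups of hearts.

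All 39 hearts came from mice of strain C57BL6/J, 1 library each. Hearts of the first set had no surgery: at 3 weeks of age wild type and homozygous R14del hearts (n = 4 each) and at 5 weeks the same genotypes (n = 4 each). The 8-week hearts were wild type (n = 3), heterozygous Pln wt/R14del (n = 4) or homozygous (n = 4). R14del removes arginine 14 of phospholamban, a small inhibitor of calcium uptake into the sarcoplasmic reticulum of heart muscle cells. Hearts of the second set were wild type and male, operated on at 12 weeks of age. They were taken 3 days after ischemia-reperfusion, in which the left anterior descending artery was tied for a time and released (labelled 12 weeks old, n = 4), 8 weeks after permanent ligation, called infarction here (labelled 20 weeks, n = 4), or after sham surgery at either time (n = 2 at 12 weeks and n = 2 at 20 weeks, used as 1 sham group of 4). Tissue of the second set was myocardium remote from the infarct, so none of these values describes the infarct itself.

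The heart holds macrophages that settle before birth and renew themselves in place, marked in mice by Timd4, Lyve1 and Folr2, and macrophages that derive from blood monocytes, which enter through the receptor Ccr2. All of them depend on signalling through Csf1r, the receptor for colony-stimulating factor 1. After injury, monocytes enter the tissue, engulf debris, and may take on a lipid-associated program with Trem2, Gpnmb and Lgals3, genes of lipid sensing, lysosomes and phagocytosis. Lyve1, a hyaluronan receptor, is also a marker of lymphatic endothelium, and Lgals3 is not restricted to macrophages.

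Promoter sequences were read from RefSeq (build GRCm38.p6) as 250 bases before and 50 bases after each start, and 26 of the 34 members matched 30 such windows. The motif of AP-1, a factor of cell activation, was searched as TGANTCA on both strands, and lay in 4 of 30 member windows (13.3%) and in 7.81% of all 32851 windows. In the 250 upstream bases alone it lay in 3 of 30 (10.0%) against 6.75% of all. The 3 upstream windows with a match are shown because 1 belongs to each role, resident (Folr2), general (Cd68) and lipid-associated (Trem2). Capitals mark the motif, and each is read 5′ to 3′ on the gene's own strand, at chr7:101845332-101845581 (minus) for Folr2, chr11:69666171-69666420 (minus) for Cd68 and chr17:48346151-48346400 (plus) for Trem2.
Folr2: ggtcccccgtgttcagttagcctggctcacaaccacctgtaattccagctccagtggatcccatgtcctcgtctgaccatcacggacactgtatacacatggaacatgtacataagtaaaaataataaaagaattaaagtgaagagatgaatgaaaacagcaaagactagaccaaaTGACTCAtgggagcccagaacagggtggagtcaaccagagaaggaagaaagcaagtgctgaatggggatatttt
Cd68: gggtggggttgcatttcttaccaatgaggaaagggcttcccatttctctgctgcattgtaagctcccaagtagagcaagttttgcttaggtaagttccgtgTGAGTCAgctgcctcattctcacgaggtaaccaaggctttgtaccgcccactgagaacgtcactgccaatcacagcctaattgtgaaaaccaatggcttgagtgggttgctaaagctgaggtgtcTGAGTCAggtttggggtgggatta
Trem2: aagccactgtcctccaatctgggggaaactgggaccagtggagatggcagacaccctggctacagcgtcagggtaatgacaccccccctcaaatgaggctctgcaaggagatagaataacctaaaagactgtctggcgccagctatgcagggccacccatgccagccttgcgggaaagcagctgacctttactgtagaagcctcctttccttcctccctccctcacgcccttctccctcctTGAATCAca
The first base of the motif lay 74 bases before the start in Folr2, 149 and 24 bases before it in Cd68 and 9 bases before it in Trem2. The PU.1 motif GAGGAAGT (ACTTCCTC on the other strand), of the factor that sets the myeloid lineage, lay in 6 of 30 whole member windows (20.0%), those of Cd300lf, Cd53, Ctss, F13a1 and Ly6c2, against 3.2% of all. Upstream of the start alone it lay in 2 of 30 (6.67%), both of Ly6c2 and overlapping each other, against 2.44% of all. The M-box TCATGTG, searched on both strands and bound by the lysosomal factors of the MITF family, lay in 1 of 30 whole windows (Ctss, 3.33%) against 3.77% of all. A match describes these letters and is not a binding site or a cause.

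Libraries held 9.40 M to 19.3 M counts, and those of 5 weeks 9.78 M to 12.0 M. None of the 57 replicate pairs shared all counts. Per gene, their chi-square values were 4.03 to 97.4, above sampling noise, so each library counted as 1 sample. Whether each library is a separate animal is not numbered in the labels, and the p-values then cover only the variation seen among these libraries, which may be technical. The R14del change removes 1 codon, so that counts of Pln cannot check the genotype labels, and no other check of them was made here. The 8 cardiomyocyte markers were found in every library, at summed levels of 33989.5 to 107994 CPM (each count scaled to the total of its library). Genes antisense to Folr2, F13a1, Csf1r, Mertk and Cd300lf overlap them in the annotation, and since the strand setting of the counting is not given, reads of the pair cannot be told apart. In bulk tissue, a change in the number of macrophages and a change in RNA per macrophage cannot be told apart.

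In wild type hearts of 8 weeks 5 of the 6 resident genes stood above all 3 lipid-associated genes per kilobase, and Timd4 stood below Lgals3. Cd300lf, Ly6c2, Arg1 and Chil3 had the lowest levels of the 34. Per kilobase of exon, the CPM per kb level was 128 ± 15.2 (SD, n = 3) for Lyz2, a lysozyme, 18.3 ± 2.98 for Tyrobp, the adaptor of Trem2 and other receptors, and 13.1 ± 2.30 for Csf1r. Folr2, a folate receptor, stood at 7.37 ± 1.04 CPM per kb, F13a1, a coagulation factor subunit, at 6.98 ± 1.41, Lyve1 at 6.37 ± 1.34 and Mrc1, the mannose receptor, at 5.39 ± 0.527. These 4 neighbours in the order lay within or close to each other's spread. Cd163, the hemoglobin scavenger receptor, stood lower at 2.94 ± 0.331 CPM per kb and Timd4, a receptor for phosphatidylserine on dying cells, at 1.03 ± 0.341. Lgals3, galectin 3, stood at 1.85 ± 0.191 CPM per kb, Trem2, a lipid receptor, at 0.593 ± 0.0859 and Gpnmb, a lysosomal glycoprotein, at 0.255 ± 0.0734. Between wild type hearts of 3 and 8 weeks, 2 of 34 members were called, both higher at 8 weeks, against 8.4% of all genes called in either direction and 4.73% called higher. These were Lyz2 at 0.72 ± 0.17 (log2 change ± its standard error; edgeR quasi-likelihood test, adjusted p = 0.00711) and its paralog Lyz1 at 1.86 ± 0.53 (edgeR, adjusted p = 0.0220), genes so alike that reads may be shared between them. This pair of calls rested on single libraries: without wild type replicate 2 of 3 weeks or replicate 1 of 8 weeks 1 member was called, and without wild type replicate 3 of 8 weeks 0 were.

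**Figure D1:**
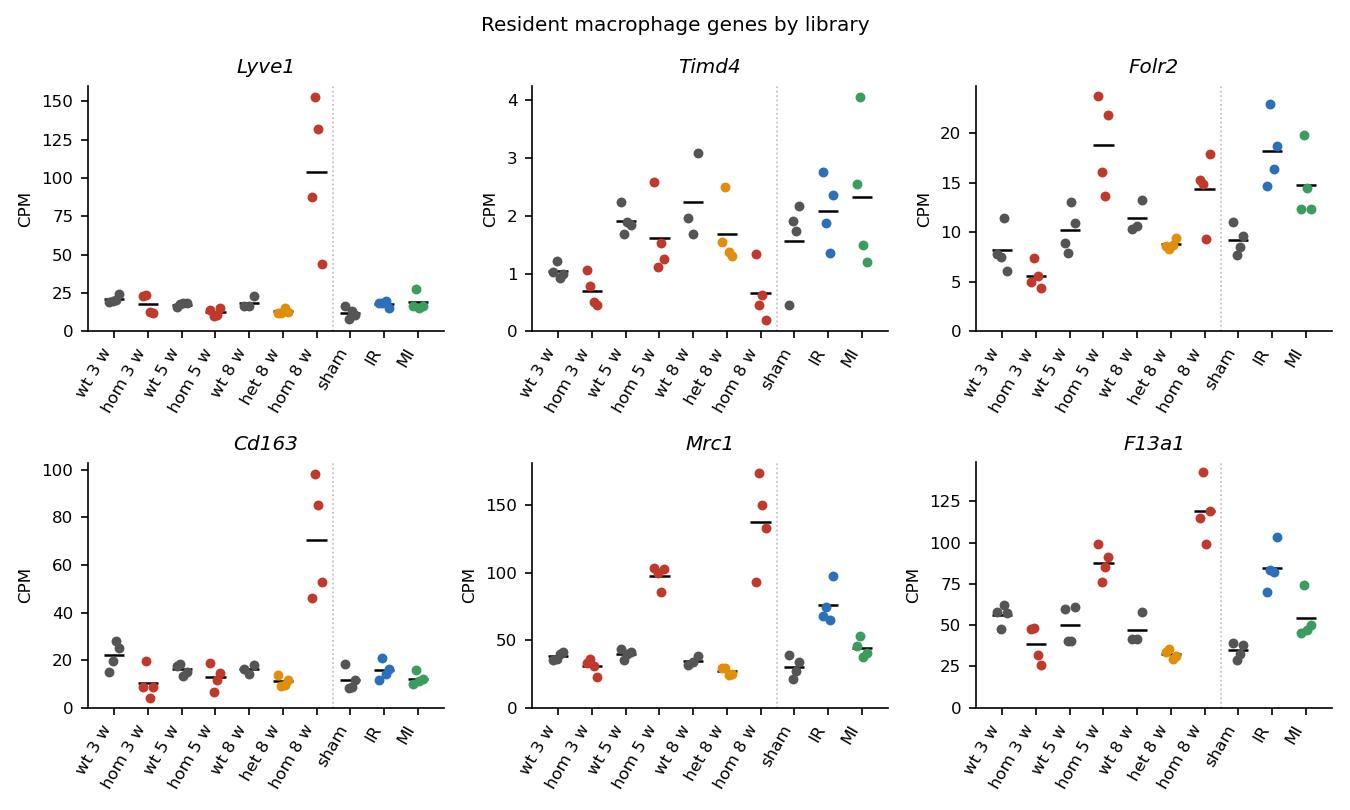
Levels of the 6 resident genes in each of the 39 libraries, in CPM on a linear scale from 0, with 1 panel per gene, 1 point per library and a bar at each group's mean. Homozygous hearts of 8 weeks stand above wild type for Lyve1, Cd163, Mrc1 and F13a1 and below it for Timd4, while those of 5 weeks stand below wild type for Lyve1.

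At 3 weeks no member was called between homozygous and wild type hearts by edgeR, 0 of 29 tested, against 0% of all genes. Unadjusted p was under 0.05 for 7 members, 4 of them resident genes. The share of all genes under that unadjusted p was not counted, so this number has no background beside it. DESeq2 called 1 member lower and 112 genes in all. Cd163 stood at 14.98, 19.6, 28.2 and 25.2 CPM in the wild type libraries and at 8.55, 19.8, 3.98 and 8.91 CPM in the homozygous ones. Homozygous replicate 2 lay inside the wild type range and the other 3 lay below it, and the log2 change was -1.13 ± 0.37 (edgeR, adjusted p = 0.339). F13a1 was at 58.0, 47.9, 62.4 and 57.5 CPM in wild type and 47.5, 48.2, 31.9 and 26.0 CPM in homozygous hearts, which overlapped (log2 change -0.59 ± 0.18; edgeR, adjusted p = 0.299). Cbr2 was the 1 of 29 tested members whose groups did not overlap, against 6.42% of all genes, with a log2 difference of -0.54 ± 0.13 (edgeR, adjusted p = 0.241). The resident, general and lipid-associated genes had median log2 changes of -0.59, -0.25 and 0.37, with no call.

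At 5 weeks the resident genes split. Lyve1 and Cd163 fell in homozygous hearts, Folr2, Mrc1 and F13a1 rose, and nearly all general and all 3 lipid-associated genes rose by larger amounts. In all, 29 of 33 tested members were higher and 2 lower by edgeR, against 22.3% of all genes called higher and 21.4% lower. Libraries of the 2 genotypes did not overlap for 30 of 33 members that lay higher and 1 that lay lower, against 35.9% and 9.22% of all genes. Over the 6 resident genes the median log2 change was 0.08, over the 21 general genes 2.14 and over the 3 lipid-associated genes 3.15, beside -0.00 over all genes tested.

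Lyve1 stood at 15.5, 17.9, 18.1 and 18.2 CPM in the 4 wild type libraries and at 14.1, 9.78, 10.7 and 14.9 CPM in the 4 homozygous ones. All homozygous hearts lay below all wild type hearts, and Lyve1 fell by 0.70 ± 0.13 on the log2 scale (edgeR, adjusted p = 0.000247). Cd163 stood at 17.4, 18.6, 13.5 and 15.2 CPM in wild type and 18.6, 6.80, 11.7 and 14.7 CPM in homozygous hearts. These overlapped, with homozygous replicate 1 as high as the highest wild type library. Cd163 fell by 0.53 ± 0.20 (edgeR, adjusted p = 0.0424), a call that was lost with library size scaling, where the log2 change was -0.32, in the fit of all 39 libraries, and without any 1 of 5 libraries: wild type replicate 1 (-0.49), 2 (-0.46) or 4 (-0.55), or homozygous replicate 2 (-0.30) or 3 (-0.49). Timd4 was at 2.24, 1.68, 1.90 and 1.84 CPM in wild type and 2.59, 1.12, 1.53 and 1.25 CPM in homozygous hearts. Replicate 1 of the homozygous hearts was the highest of all 8 libraries and the other 3 were the lowest, and no call was made (log2 change -0.45 ± 0.31; edgeR, adjusted p = 0.268).

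The other 3 resident genes rose at the same age. Mrc1 went from 43.7, 35.4, 39.9 and 41.0 CPM in wild type to 103, 99.6, 85.6 and 102 CPM in homozygous hearts. The groups stood far apart, with a log2 difference of 1.08 ± 0.08 (edgeR, adjusted p = 2.84e-09). Folr2 was at 8.87, 7.87, 13.1 and 10.9 CPM against 23.8, 16.03, 13.7 and 21.8 CPM, with the lowest homozygous library just above the highest wild type one (log2 change 0.68 ± 0.17; edgeR, adjusted p = 0.00368). F13a1 was at 59.5, 40.1, 40.5 and 60.9 CPM against 99.3, 76.4, 85.0 and 91.0 CPM and rose by 0.60 ± 0.12 on the log2 scale (edgeR, adjusted p = 0.000669). The F13a1 groups did not overlap either. Cbr2 rose by 0.54 ± 0.10 (edgeR, adjusted p = 0.000312).

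Of the 21 general genes 20 rose at 5 weeks. Csf1r stood at 60.9, 73.7, 75.9 and 69.5 CPM in wild type and 214, 206, 180.3 and 209 CPM in homozygous hearts. The lowest homozygous library stood far above the highest wild type one, with a log2 difference of 1.32 ± 0.07 (edgeR, adjusted p = 7.85e-11). Adgre1, the gene of the macrophage antigen F4/80, was at 18.1, 20.5, 12.4 and 15.1 CPM against 97.6, 114, 83.1 and 99.0 CPM. It rose 5.17-fold without overlap (edgeR, adjusted p = 1.64e-11). Cd68, a lysosomal membrane protein, was at 13.2, 10.8, 10.5 and 10.2 CPM against 78.2, 64.8, 53.1 and 64.5 CPM and rose 5.07-fold (edgeR, adjusted p = 1.64e-11). Apart from Cd300lf, the largest changes of general genes were those of the lysozyme Lyz1 (4.83 on the log2 scale), the pore-forming protein Mpeg1 (2.90), the lysosomal protease Ctss (2.83) and Lyz2 (2.52). Cd300lf, an inhibitory receptor of myeloid cells, had 54 counts over the homozygous libraries and 1 over the wild type ones, a ratio of counts per depth of 58.3 with a 95% counting interval of 10 to 2.35e+03. The immune receptors and adaptors Fcgr1 (2.42), Fcer1g (2.12) and Tyrobp (2.01) lay near the median of the general genes. Mertk, the receptor through which macrophages take up dying cells, was the exception at 0.12 ± 0.10 (edgeR, adjusted p = 0.363).

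All 3 lipid-associated genes rose at 5 weeks. Lgals3 was at 3.74, 3.45, 3.52 and 2.92 CPM in wild type and 144, 139.6, 96.8 and 129 CPM in homozygous hearts. This was the largest fold of the 15 members given by library in the text, 32.3-fold (log2 change 5.02 ± 0.13; edgeR, adjusted p = 4.86e-15). Trem2 was at 3.27, 3.98, 2.62 and 2.25 CPM against 33.5, 30.2, 29.2 and 30.7 CPM, and Gpnmb at 3.74, 1.59, 1.35 and 1.502 CPM against 20.1, 20.1, 17.9 and 24.2 CPM. Neither overlapped between genotypes, and they rose 8.85-fold and 8.76-fold (edgeR, adjusted p = 6.91e-12 and 1.79e-09). Of the recruited or activated genes, Ly6c2, a surface antigen of inflammatory monocytes, was at 0.467, 0.265, 0.903 and 0.584 CPM against 1.69, 2.80, 1.33 and 1.88 CPM. It rose by 1.57 ± 0.39 on the log2 scale (edgeR, adjusted p = 0.00293). Chil3, a chitinase-like protein of newly arrived monocytes and activated macrophages, was at 0.0934, 0.265, 0 and 0 CPM against 1.09, 1.77, 1.23 and 1.25 CPM, so that all homozygous libraries lay higher (edgeR, adjusted p = 0.000105). Arg1, arginase 1, was too low to be tested, at 0, 0, 0.0903 and 0 CPM against 0, 0.280, 0.409 and 0.805 CPM. Over the groups these were 16 counts against 1, a ratio of counts per depth of 17.3 with a 95% counting interval of 2.68 to 725. Ly6c2 and Chil3 each have close paralogs, so their counts may share reads with those.

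**Figure D2:**
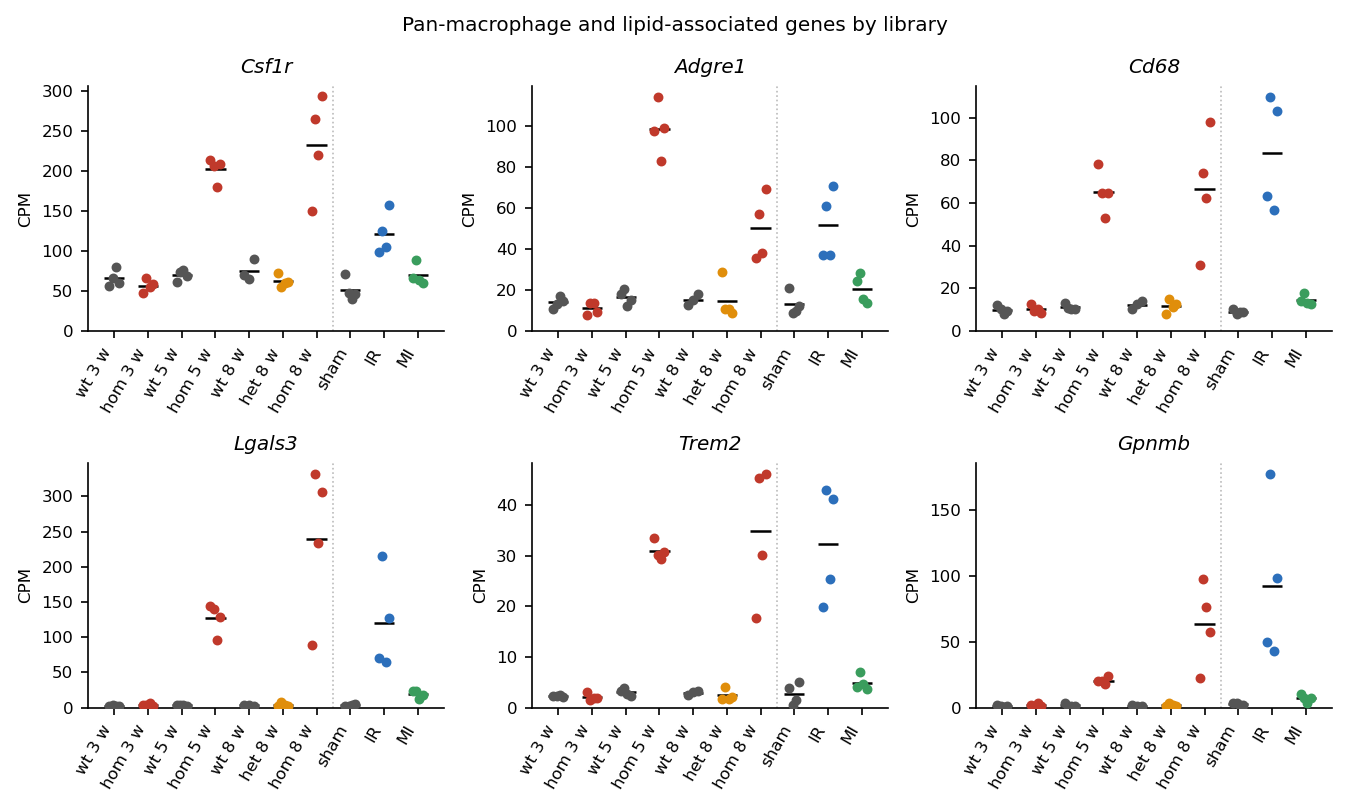
Levels of Csf1r, Adgre1 and Cd68 and of the lipid-associated genes Lgals3, Trem2 and Gpnmb in each of the 39 libraries, in CPM on a linear scale from 0, with 1 point per library and a bar at each group's mean. Homozygous hearts of 5 and 8 weeks and hearts 3 days after ischemia-reperfusion stand above their controls in all 6 panels.

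Further macrophage genes outside the 34 were read at 5 weeks as well. Of 22 further general genes 22 rose, among them the complement genes C1qa (1.91), C1qb (2.03) and C1qc (1.87) (log2 changes). Of 12 tested resident-type genes 8 rose, such as the chemokine Pf4 (1.22) and the growth factor Igf1 (1.65), and Fcna, a ficolin of macrophages, fell by 0.91 ± 0.34. Of 12 lipid-associated and lysosomal genes 9 rose, led by Spp1, osteopontin (6.72), and Itgax (3.39), while Lpl, lipoprotein lipase, fell by 0.69 ± 0.08 and Fabp5, a fatty acid binding protein, by 0.38 ± 0.07. Of 14 genes of macrophage growth and recruitment 11 rose, including Ccr2 (3.30), Ccl2 (2.87) and Cx3cr1 (2.03). Beside these, 5 of 6 monocyte markers were higher, with summed levels of 179 to 237 CPM in homozygous and 80.8 to 98.6 CPM in wild type hearts. Fibroblast markers were higher in 7 of 7 (summed 5958 to 8062 against 1859.7 to 2025 CPM) and cardiomyocyte markers lower in 7 of 8 (summed 53556 to 60624 against 72043 to 74990.4 CPM). All 9 blood endothelium markers were lower. The neutrophil markers summed to 7.46 to 10.9 CPM against 3.42 to 4.88 CPM, with Retnlg, Ngp and Camp at 0 in all homozygous libraries. The part of these cell types in the changes of the members was not tested.

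At 8 weeks 4 of the 6 resident genes were higher in homozygous hearts, with Lyve1 and Cd163 now among them, Timd4 was lower and Folr2 was not called. Of all 31 tested members 29 were higher and 1 lower by edgeR, against 59.8% of all genes called, 30.8% higher and 29% lower. All 21 general genes rose, with a median of 2.03 on the log2 scale, beside 1.51 over the resident genes, 5.04 over the lipid-associated genes and 0.02 over all genes tested.

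Lyve1 stood at 16.4, 16.3 and 23.1 CPM in the 3 wild type libraries and at 87.6, 153, 132 and 44.0 CPM in the 4 homozygous ones. The lowest homozygous heart, replicate 4, was still above every wild type heart, and the rise was 5.03-fold (log2 change 2.33 ± 0.33; edgeR, adjusted p = 6.75e-05). Markers of lymphatic endothelium moved beside it: 4 of 5 tested were higher, Mmrn1 at 3.19, Reln at 2.67, Pdpn at 2.27 and Flt4 at 0.79 on the log2 scale, and Prox1, the lymphatic transcription factor, fell by 0.83 ± 0.10. Their summed level was 158 to 347 CPM in homozygous and 107 to 115 CPM in wild type hearts. Mmrn1, in replicate order, was at 54.1, 127, 96.6 and 29.0 CPM in the homozygous hearts, in the same order of hearts as Lyve1, and at 6.24 to 8.70 CPM in wild type. The part of lymphatic endothelium in the Lyve1 level was not tested.

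Cd163 was at 16.1, 14.2 and 17.8 CPM in wild type and 45.9, 98.3, 85.3 and 52.8 CPM in homozygous hearts. The groups did not overlap, and Cd163 rose 3.90-fold (log2 change 1.96 ± 0.23; edgeR, adjusted p = 1.48e-05). Mrc1 was at 31.3, 33.8 and 37.9 CPM against 93.2, 174, 149.9 and 133 CPM, and F13a1 at 41.5, 41.7 and 58.0 CPM against 115, 143, 99.4 and 119 CPM. Each rose without overlap, by 1.83 ± 0.14 and 1.18 ± 0.13 on the log2 scale (edgeR, adjusted p = 9.77e-07 and 1.00e-05). Timd4 went the other way, at 1.96, 1.69 and 3.09 CPM in wild type and 1.34, 0.463, 0.627 and 0.189 CPM in homozygous hearts. All 4 homozygous hearts lay below the wild type hearts, and Timd4 fell by 1.87 ± 0.48 (edgeR, adjusted p = 0.00460), on counts of 3 to 23 per homozygous library. Folr2 was at 10.3, 10.7 and 13.2 CPM against 15.2, 14.9, 9.35 and 17.9 CPM. Homozygous replicate 3 was the lowest of the 7 libraries and the other 3 were the highest, with a log2 difference of 0.17 ± 0.18 (edgeR, adjusted p = 0.429) and of 0.34 without that library (edgeR, adjusted p = 0.0353).

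The general genes were higher in every homozygous heart of 8 weeks than in any wild type one. Of 31 tested members 29 lay higher without overlap and 1 lower, against 35.1% and 20.9% of all genes. Csf1r was at 70.1, 65.7 and 90.6 CPM in wild type and 150.2, 265, 220.0 and 293 CPM in homozygous hearts (log2 change 1.45 ± 0.17; edgeR, adjusted p = 1.27e-05). Adgre1 was at 12.9, 15.4 and 18.0 CPM against 35.7, 57.4, 38.2 and 69.3 CPM (log2 change 1.53 ± 0.35; edgeR, adjusted p = 0.00226). Cd68 was at 10.2, 12.7 and 14.1 CPM against 30.9, 74.3, 62.4 and 97.8 CPM (log2 change 2.24 ± 0.29; edgeR, adjusted p = 3.27e-05). Homozygous replicate 1 was the lowest of its group for all 3 of these genes, while replicate 4 was the lowest for Lyve1. Ctss (3.23), Mpeg1 (2.83), the low-affinity antibody receptor Fcgr3 (2.58) and Cd14, the co-receptor for lipopolysaccharide (2.42), rose most among the general genes apart from Cd300lf (4.10). Mertk, not called at 5 weeks, was at 1.46 ± 0.20 (edgeR, adjusted p = 4.27e-05).

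Lgals3 rose 60.6-fold at 8 weeks, from 3.42, 3.80 and 3.09 CPM in wild type to 88.4, 332, 234 and 306 CPM in homozygous hearts (edgeR, adjusted p = 8.83e-07). Gpnmb went from 2.12, 1.69 and 1.17 CPM to 22.6, 97.9, 76.4 and 57.8 CPM, a 32.9-fold rise (edgeR, adjusted p = 2.51e-06), and Trem2 from 2.45, 3.13 and 3.22 CPM to 17.7, 45.3, 30.2 and 46.1 CPM, a 10.4-fold rise (edgeR, adjusted p = 3.72e-06). Replicate 1 was the lowest homozygous heart for each, yet far above the wild type range. The recruited or activated genes did not pass the filter on low counts. Chil3 stood at 0.175, 0.867, 0.855 and 0.505 CPM, Arg1 at 0.292, 0.520, 0.228 and 0.820 CPM and Ly6c2 at 0.467, 0.231, 0.513 and 0.946 CPM in the homozygous libraries. All of these lay under 1 CPM. Over the groups Chil3 had 41 counts against 1 in wild type, a ratio of counts per depth of 30 with a 95% counting interval of 5.09 to 1.21e+03, and Arg1 31 against 2, a ratio of 11.3 with an interval of 2.88 to 97.7.

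The further genes were also read at 8 weeks. Of 13 tested resident-type genes 10 rose, with Gas6 (1.95), Selenop (1.92) and Stab1 (1.07) the clearest by p (log2 changes), and 2 fell, Mgl2, a lectin, by 2.92 ± 0.25 and Retnla by 2.53 ± 0.37. Of 22 further general genes 21 rose, such as C1qa (2.26), C1qb (2.43) and Ms4a6c (2.56). Of 12 lipid-associated and lysosomal genes 10 rose, with Spp1 at 6.54 and Apoe, apolipoprotein E, at 2.55, and Lpl fell by 0.64 ± 0.18. Of 14 growth and recruitment genes 9 rose, among them Spi1, the gene of PU.1 (1.75), the transcription factor Maf (1.33) and the chemokine Cx3cl1 (1.17), and 2 fell, Nr1h3 by 0.45 ± 0.11 and Csf1 by 0.38 ± 0.15. Monocyte markers were higher in 5 of 6, with summed levels of 426 to 700.5 CPM against 95.3 to 109 CPM in wild type. A sum is weighted to its most abundant genes. The median log2 change over the 6 markers was 2.20, beside 2.75 at 5 weeks, so the larger sum is not a larger change of the list. Fibroblast markers were higher in 7 of 7 and cardiomyocyte markers lower in 6 of 8, the latter with sums of 33989.5 to 56377 CPM against 87657 to 91080.0 CPM. The T and NK cell markers summed to 4.20 to 32.6 CPM against 3.49 to 4.66 CPM. The part of these cells in the members' changes was not tested.

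Heterozygous hearts of 8 weeks were compared with wild type and homozygous hearts in the same fit. Against wild type, edgeR called 0 of 31 tested members, against 0% of all genes. Unadjusted p was under 0.05 for 2 of them, both resident genes, and the share of all genes under that p was not counted. DESeq2 called 0 members as well. F13a1 stood at 33.6, 35.6, 29.6 and 31.5 CPM in heterozygous and 41.5, 41.7 and 58.0 CPM in wild type hearts, lower in all 4 (log2 change -0.50 ± 0.13; edgeR, adjusted p = 1). Mrc1 stood at 29.2, 29.1, 24.0 and 25.3 CPM in heterozygous hearts, also below all wild type hearts (log2 change -0.32 ± 0.14; edgeR, adjusted p = 1). The heterozygous libraries lay below the wild type ones without overlap for 6 of 31 members, 5 resident genes (all but Timd4) and Cd300lf, against 4.02% of all genes, and no gene was called. Cd300lf had only 5 counts over the heterozygous and 6 over the wild type libraries, too few for its order to carry weight. The median log2 change was -0.43 over the resident and -0.07 over the general genes. Against heterozygous hearts, homozygous hearts had 30 of 31 tested members higher and 1, Timd4, lower, against 32% and 30% of all genes (61.9% in either direction). Folr2, not called against wild type, was called here at 0.51 ± 0.17 (edgeR, adjusted p = 0.0185), a call lost without homozygous replicate 4 (0.41; edgeR, adjusted p = 0.0571).

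The effect of the homozygous genotype differed between ages. From 3 to 5 weeks, the signed log2 effect was higher at 5 weeks for 27 of 34 members and lower for none by the edgeR interaction test, against 20.4% of all genes called, 11.1% higher and 9.29% lower. Among the resident genes these were Mrc1 (1.41 ± 0.20), Folr2 (1.26 ± 0.29) and F13a1 (1.17 ± 0.24), with edgeR adjusted p of 5.06e-06, 0.00190 and 0.000504. From 5 to 8 weeks, 6 members had a higher effect and 2 a lower one, against 14.4% and 13.8% of all genes, so the overall share was close to that of all genes. The resident genes Lyve1 (3.06 ± 0.39; edgeR, adjusted p = 4.41e-07) and Cd163 (2.52 ± 0.45; edgeR, adjusted p = 6.80e-05) had the largest differences upward. Mertk (1.37), Gpnmb (1.94), Fcgr3 (0.99) and Mrc1 (0.78) also had a larger effect at 8 weeks. Lyz1 (-2.79) and Nckap1l, a regulator of the cytoskeleton in blood cells (-0.76), had a smaller one. Csf1r (0.15), Cd68 (-0.07), Trem2 (0.26) and Lgals3 (0.93) were not called between the ages. The 5-week libraries carry names with another stem than those of 3 and 8 weeks, what the stem stands for is not given, and age and this difference cannot be told apart.

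**Figure D3:**
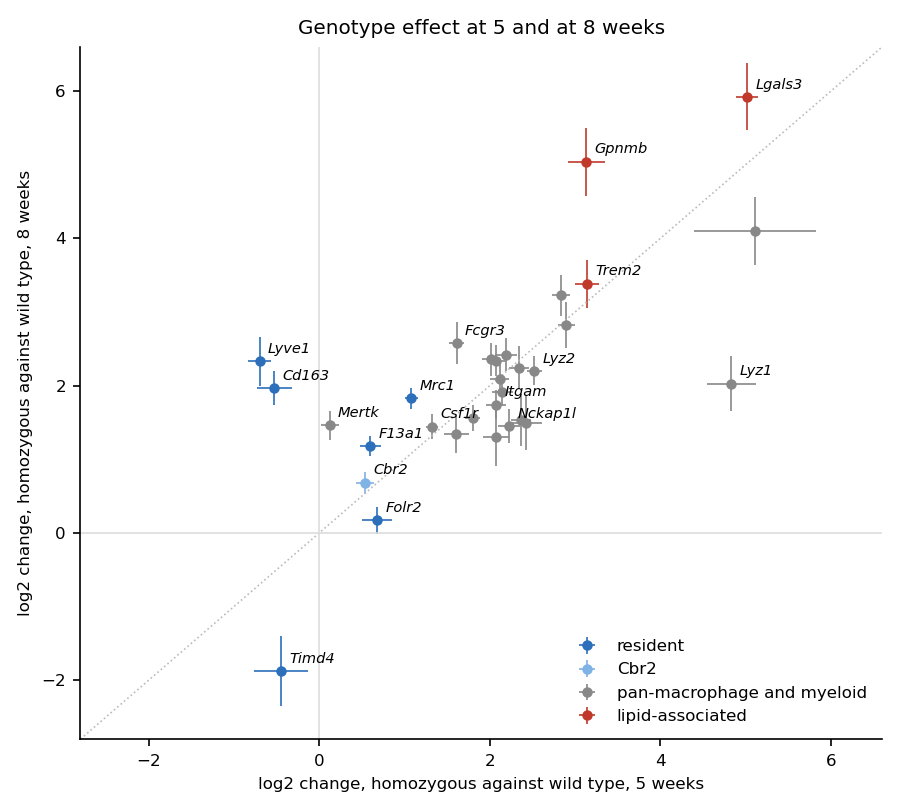
Log2 change between homozygous and wild type hearts at 5 weeks (horizontal axis) against 8 weeks (vertical axis), 1 point per member tested at both ages, coloured by role, with bars of 1 standard error. Lyve1 and Cd163 lie below 0 at 5 weeks and above 0 at 8 weeks, while Timd4 lies below 0 at both.

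In remote myocardium 3 days after ischemia-reperfusion, the lipid-associated and recruited genes, 20 of 21 general genes and 3 of 6 resident genes were higher than in shams. By edgeR 30 of 34 members were higher and none lower, against 16.9% and 14.1% of all genes. Injured hearts lay above all shams without overlap for 30 of 34 members, against 28.3% of all genes. The medians were 0.56 over the resident genes, 2.25 over the general genes, 4.90 over the lipid-associated genes and -0.02 over all genes tested. Mrc1 stood at 39.3, 33.7, 21.1 and 26.9 CPM in the shams (12 weeks, then 20 weeks) and at 68.2, 74.4, 65.0 and 97.6 CPM after ischemia-reperfusion. F13a1 stood at 39.4, 37.9, 29.0 and 32.4 CPM against 70.2, 83.7, 82.3 and 103 CPM. Both rose without overlap, by 1.11 ± 0.15 and 1.07 ± 0.14 on the log2 scale (edgeR, adjusted p = 6.62e-05 and 5.74e-05). Folr2 was at 11.03, 9.60, 7.66 and 8.51 CPM against 14.6, 23.0, 16.4 and 18.7 CPM and rose by 0.75 ± 0.17 (edgeR, adjusted p = 0.00325). With the age-matched shams alone the Folr2 call was lost (0.63; edgeR, adjusted p = 0.0542).

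Lyve1, Timd4 and Cd163 were not called after ischemia-reperfusion. Lyve1 was at 16.4, 10.3, 7.66 and 13.02 CPM in shams and 18.2, 18.7, 19.6 and 15.03 CPM after injury, which overlapped (log2 change 0.36 ± 0.21; edgeR, adjusted p = 0.209). Cd163 was at 18.3, 11.8, 8.30 and 8.58 CPM against 11.8, 20.8, 14.3 and 16.3 CPM, also overlapping (log2 change 0.20 ± 0.23; edgeR, adjusted p = 0.535). Timd4 was at 0.448, 2.18, 1.91 and 1.73 CPM against 2.76, 1.87, 1.36 and 2.36 CPM, with a log2 difference of 0.19 ± 0.43 (edgeR, adjusted p = 0.784).

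Csf1r rose from 71.2, 45.9, 47.3 and 40.2 CPM in shams to 98.8, 125, 105 and 158 CPM after ischemia-reperfusion (log2 change 1.02 ± 0.16; edgeR, adjusted p = 0.000280). Adgre1 was at 21.2, 12.5, 8.93 and 10.1 CPM against 37.4, 60.9, 37.3 and 71.0 CPM, and Cd68 at 10.5, 8.91, 8.08 and 9.18 CPM against 63.4, 109.7, 56.5 and 103 CPM. Neither overlapped, and they rose 3.35-fold and 7.70-fold (edgeR, adjusted p = 0.000203 and 3.22e-07). Among the other general genes the log2 changes ran from 0.80 for Mertk upward, with 3.29 for Mpeg1, 3.24 for Ctss and 3.14 for Fcgr1, the high-affinity antibody receptor. Cd300lf was far above these, at 6.28 ± 0.63 (edgeR, adjusted p = 5.61e-06), with 592 counts over the injured hearts and 5 over the shams, all 5 in 1 sham. Lyz1 was the general gene without a call (1.05 ± 0.42; edgeR, adjusted p = 0.0721). Lgals3 was at 2.87, 4.65, 2.23 and 3.76 CPM against 70.1, 216, 65.6 and 128 CPM, Trem2 at 3.86, 5.15, 0.532 and 1.58 CPM against 19.8, 42.9, 25.4 and 41.2 CPM, and Gpnmb at 3.23, 1.98, 3.30 and 1.88 CPM against 50.1, 177, 42.8 and 98.4 CPM. In each, the lowest injured heart lay well above the highest sham, and replicate 2 was the highest. Their folds were 29.9, 9.99 and 30.5 (edgeR, adjusted p = 8.86e-07, 1.83e-05 and 3.15e-06).

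Arg1 and Chil3 stood higher in each of these hearts than in any library of the other groups. Arg1 was at 0.448, 0.693, 0 and 0.301 CPM in shams and 18.5, 21.9, 32.4 and 30.4 CPM after ischemia-reperfusion, a 59.2-fold rise (edgeR, adjusted p = 3.79e-06). Chil3 had 1 count over the 4 shams and 662 counts over the 4 injured hearts, where it stood at 10.5, 27.9, 5.92 and 9.30 CPM. The ratio of counts per depth was 562, with a 95% counting interval of 101 to 2.22e+04. Ly6c2 was at 0.269, 0.495, 0 and 0.226 CPM against 1.54, 1.96, 2.24 and 2.74 CPM and rose by 2.82 ± 0.49 on the log2 scale (edgeR, adjusted p = 0.000514). Of the further genes, 22 of 22 general, 7 of 13 resident-type, 11 of 12 lipid-associated and 10 of 14 growth and recruitment genes rose, among them Siglec1 (1.98), Spp1 (6.98) and Ccr2 (2.67), and Retnla, a resident-type gene in this list, fell by 1.83 ± 0.35. All 6 tested neutrophil markers were higher, with summed levels of 37.5 to 66.9 CPM against 4.47 to 9.21 CPM in shams, where Ly6g, Ngp and Camp were at 0. Monocyte markers were higher in 4 of 6 (summed 124 to 188 against 71.7 to 104 CPM). Itgam, Itgb2, Fcgr3, Fcer1g, Tyrobp and Lyz2 are among the members known to be expressed by neutrophils as well. The part of those cells in the rise of any member, Chil3 and Cd300lf included, was not tested.

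In remote myocardium 8 weeks after infarction few members passed the test, with Lgals3 the one with the largest change. By edgeR 5 of 34 members were higher and none lower, against 6.62% and 4.77% of all genes. Infarcted hearts lay above all shams without overlap for 12 of 34 members, against 13.4% of all genes. Unadjusted p was under 0.05 for 21 members, and the share of all genes under that p was not counted. Lgals3 was at 2.87, 4.65, 2.23 and 3.76 CPM in shams and 24.2, 24.1, 12.4 and 17.4 CPM after infarction. All infarcted hearts lay above all shams, with a log2 difference of 2.40 ± 0.40 (edgeR, adjusted p = 0.00207). Gpnmb was at 10.1, 7.56, 3.91 and 7.60 CPM after infarction, above the sham range of 1.88 to 3.30 CPM, without a call (1.38 ± 0.52; edgeR, adjusted p = 0.101). DESeq2 (1.38), the test without a filter on low counts (1.38), the fit of all 39 libraries (1.38) and the replicate block (1.68) called it. Trem2 was at 4.17, 7.10, 4.62 and 3.67 CPM and overlapped the shams (0.71 ± 0.43; edgeR, adjusted p = 0.306).

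Of the resident genes, 2 were called after infarction. Folr2 was at 12.3, 19.8, 14.5 and 12.4 CPM (log2 change 0.57 ± 0.17; edgeR, adjusted p = 0.0427) and F13a1 at 45.3, 74.6, 47.2 and 50.4 CPM (log2 change 0.54 ± 0.14; edgeR, adjusted p = 0.0255). Replicate 2 was the highest infarcted heart for both, and without it neither call held (0.42 and 0.38). The Folr2 call was also lost without infarction replicate 3 (0.56), either 20-week sham (0.51 and 0.54) or 12-week sham replicate 2 (0.57), and that of F13a1 without either 20-week sham (0.48 and 0.51). Lyve1 was at 16.3, 27.7, 15.2 and 16.4 CPM, Cd163 at 9.78, 15.7, 11.3 and 12.2 CPM, Mrc1 at 45.3, 53.0, 37.8 and 40.4 CPM and Timd4 at 2.55, 4.06, 1.49 and 1.19 CPM, without calls and overlapping the shams. Tyrobp (0.76 ± 0.22) and Lyz2 (0.56 ± 0.16) were the 2 general genes called (edgeR, adjusted p = 0.0369 and 0.0344). Csf1r was at 66.2, 88.2, 64.3 and 60.7 CPM, Adgre1 at 24.5, 28.2, 15.5 and 13.7 CPM and Cd68 at 13.9, 18.1, 13.3 and 12.7 CPM, with log2 changes of 0.34 ± 0.16, 0.52 ± 0.28 and 0.54 ± 0.20 and no call. The count of members called moved with single libraries, from 1 without infarction replicate 2 or either 20-week sham and 2 without infarction replicate 3 to 9 without infarction replicate 4 and 12 without 12-week sham replicate 1. Of all genes, 663 of 13813 were called without infarction replicate 2 and 789 of 13826 without 20-week sham replicate 1. Without the others named here, all genes called stayed within 1.5 times the 1550 of the main test. The member count also moved with the setting. With age-matched shams it was 12, beside 853 of 14168 genes in all. With all 39 libraries in the fit it was 12, and with DESeq2 or without a filter on low counts 14. In each of the settings of the last sentence, all genes called stayed within 1.5 times the 1550 of the main test.

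Beside these, 4 of 22 further general genes rose after infarction, among them Ncf1 (0.93) and C1qb (0.76), and 3 of 12 lipid-associated genes did, with Spp1 at 1.44. Of 13 tested resident-type genes 4 rose, such as Fcrls (1.24) and Igf1 (0.81). Of 14 growth and recruitment genes 3 rose, with Cx3cl1 at 0.86, and the chemokine Ccl7 fell by 1.53 ± 0.43. Ccl7 varied widely in shams, at 2.87 to 12.8 CPM (median 3.99), and overlapped the 1.53 to 3.87 CPM (median 1.69) after infarction. Monocyte markers were higher in 2 of 6, with summed levels of 129 to 304 CPM against 71.7 to 104 CPM in shams. Their median log2 change was 0.94, beside 2.18 after ischemia-reperfusion, so the sums do not rank the 2 injuries as the list does. Lymphatic markers were higher in 2 of 4 tested, Flt4 and Pdpn (summed 112 to 145 against 81.3 to 144 CPM). B cell markers were higher in 1 of 5 tested, Ighm (summed 24.0 to 152 against 11.2 to 17.1 CPM). The part of these cells in the members' values was not tested.

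**Figure D4:**
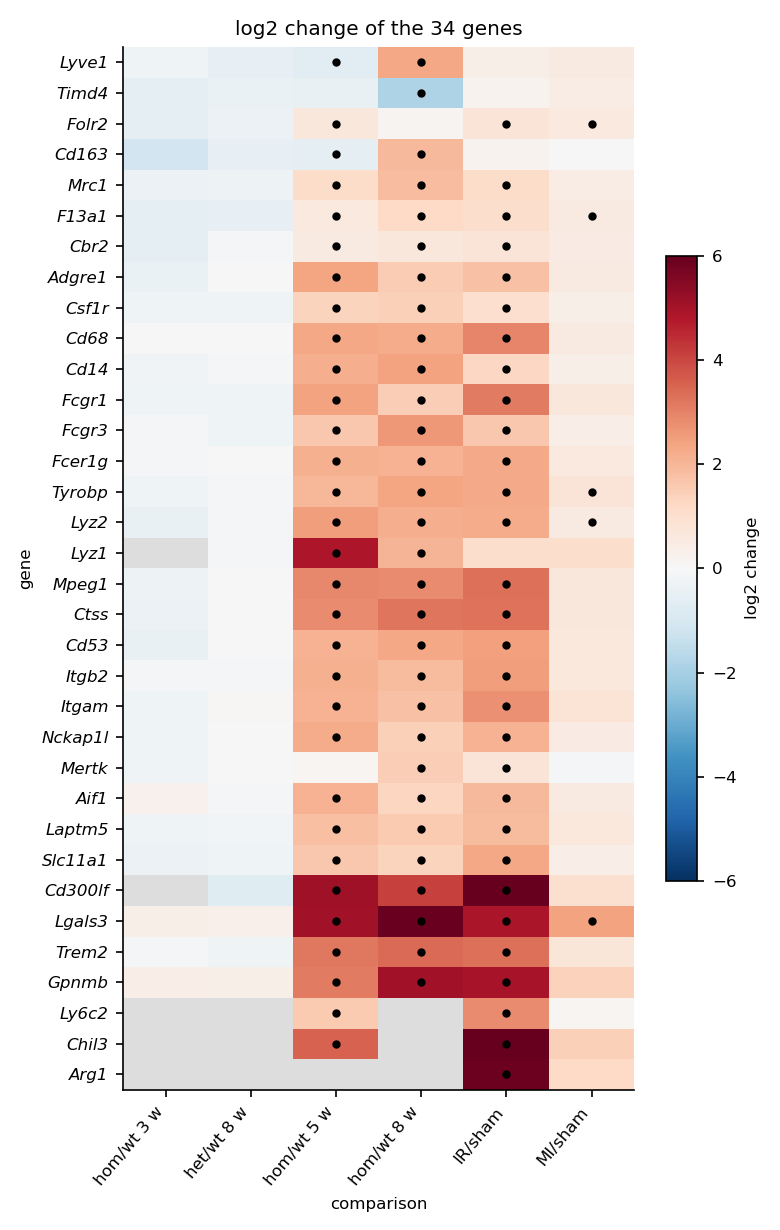
Log2 changes of the 34 members, ordered by role, in the comparisons of the study, with colour from lower (blue) to higher (red) and the scale ending at 6 in either direction. Dots mark an edgeR adjusted p under 0.05, and grey cells were not tested.

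The injuries and the mutant were then set against each other. Between hearts 3 days after ischemia-reperfusion and 8 weeks after infarction, 28 of 34 members were higher in the former and none lower, against 11.2% and 8.84% of all genes. Mrc1 (0.67 ± 0.15; edgeR, adjusted p = 0.00453) and F13a1 (0.53 ± 0.14; edgeR, adjusted p = 0.0135) were the resident genes among them. Kind of injury, time after surgery and age differ together here and cannot be told apart. The homozygous effect at 8 weeks was, as a signed log2 difference, higher than the infarction effect for 24 members and lower for 1, against 19.6% and 17.7% of all genes. The largest differences were those of Gpnmb (3.69 ± 0.70), Lgals3 (3.55 ± 0.58) and Trem2 (2.7 ± 0.50), and Timd4, which fell in the mutant and was not called after infarction, was the member with the lower one (-2.28 ± 0.60; edgeR, adjusted p = 0.00282). Adgre1 (1.04) was at the threshold (edgeR, adjusted p = 0.0495) and was not called with RLE scaling, library size scaling or DESeq2 (1.03, 1.08 and 1.02).

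Against the ischemia-reperfusion effect, the homozygous effect at 8 weeks was higher for 6 members and lower for 4, against 16.6% and 17.2% of all genes, so that the share of members called was near that of all genes. Resident genes made up 3 of the 6 with a higher effect, Lyve1 (2.0 ± 0.38; edgeR, adjusted p = 0.000126), Cd163 (1.79 ± 0.45; edgeR, adjusted p = 0.00213) and Mrc1 (0.74 ± 0.20; edgeR, adjusted p = 0.00476). Cd14 (1.19), Fcgr3 (1.0) and Mertk (0.69) were the others. Timd4 (-2.04 ± 0.60; edgeR, adjusted p = 0.00815) was among the lower, having fallen in the mutant with no call after ischemia-reperfusion. Fcgr1 (-1.63), Itgam, the integrin chain CD11b (-0.97), and Slc11a1, a metal transporter of phagosomes (-0.94), had a smaller rise in the mutant. Trem2 (0.09 ± 0.47) and Gpnmb (0.14 ± 0.66) were not called, with standard errors that leave room for differences of either sign. The mutant and surgery sets differ in age and, as far as labelled, in experiment, which cannot be told apart from these differences.

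To compare the roles directly, each library was scaled to its own Csf1r count, so that a log2 change is that of the ratio of a gene to Csf1r. On this scale the median of all genes was -1.33 at 5 weeks, -1.39 at 8 weeks, -1.06 after ischemia-reperfusion and -0.37 after infarction. At 5 weeks 22 of 32 members were higher relative to Csf1r and 8 lower, against 2.54% and 91.2% of all genes (93.7% in either direction). All 6 resident genes were among the lower, but most genes are, and only the size sets members apart from the median: Lyve1 (-2.03 ± 0.14), Cd163 (-1.86 ± 0.19) and Timd4 (-1.78 ± 0.33) lay below the median of all genes and Mrc1 (-0.26 ± 0.12), Folr2 (-0.65 ± 0.16) and F13a1 (-0.75 ± 0.14) above it. The Mrc1 call was lost without any 1 of 6 libraries, where the log2 change lay between -0.26 and -0.14. Lgals3 (3.69 ± 0.15), Trem2 (1.82 ± 0.17) and Gpnmb (1.79 ± 0.24) were higher relative to Csf1r.

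At 8 weeks 16 of 30 members were higher relative to Csf1r and 3 lower, against 3.98% and 81.9% of all genes (85.9% in either direction). The resident genes did not move as a group. Lyve1 (0.96 ± 0.30; edgeR, adjusted p = 0.00493) and Cd163 (0.54 ± 0.23; edgeR, adjusted p = 0.0310) were higher, Mrc1 (0.39 ± 0.21) and F13a1 (-0.20 ± 0.23) were not called, and Timd4 (-3.18 ± 0.50) and Folr2 (-1.22 ± 0.24) were lower. The Cd163 call was lost without wild type replicate 2 (0.54) or 3 (0.48) or homozygous replicate 2 (0.44) or 3 (0.41), and with Adgre1 in place of Csf1r (0.50). Lgals3 (4.40 ± 0.37), Gpnmb (3.54 ± 0.37) and Trem2 (1.89 ± 0.30) were higher. After ischemia-reperfusion 23 of 33 members were higher and 3 lower, against 3.62% and 82.1% of all genes (85.7% in either direction). The 3 lower were Cd163 (-0.79 ± 0.24), Lyve1 (-0.62 ± 0.24) and Timd4 (-0.91 ± 0.42), none of them below the median of all genes. The Lyve1 call was lost without injured replicate 4 (-0.44) or 20-week sham replicate 2 (-0.43), and that of Timd4 without injured replicate 2 (-0.85), 3 (-0.80) or 4 (-0.83), either 20-week sham (-0.81 and -0.75) or 12-week sham replicate 2 (-0.70). After infarction 2 of 33 members were higher, Lgals3 (2.0 ± 0.27) and Gpnmb (1.05 ± 0.29), against 1.77% of all genes, and none was lower, against 9.66%. The Gpnmb call was lost without infarction replicate 1 (0.82) or 20-week sham replicate 2 (1.02), and with Adgre1 as the denominator (0.82). The counting error of Csf1r is shared by all genes of a library on this scale. With Adgre1 as the denominator fewer members were higher, 7 at 5 weeks, 8 at 8 weeks, 11 after ischemia-reperfusion and 1 after infarction, and Cd68 at 5 weeks went to -0.0535. After infarction 345 of 13609 genes were called with Adgre1 and 1556 of 13610 with Csf1r, in either direction. In the other comparisons all genes called stayed within 1.5 times the count with Csf1r. The share of all genes called higher with Adgre1 was not counted. Adgre1 rose more than Csf1r at 5 weeks and after ischemia-reperfusion. At 8 weeks the mean ratio of Adgre1 to Csf1r was 0.205 in wild type and 0.216 in homozygous hearts.

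Summed levels of the roles are given as values, with no test. The log2 ratio of the summed CPM of the 6 resident genes to that of the 21 general genes had a median of -1.79 (-1.93 to -1.56) (lowest to highest library) in wild type and -3.36 (-3.70 to -3.31) in homozygous hearts of 5 weeks. At 8 weeks it was -1.77 (-1.87 to -1.77) in wild type, -2.11 (-2.33 to -1.93) in heterozygous and -2.10 (-2.94 to -1.87) in homozygous hearts. The homozygous hearts of 5 weeks stood apart from wild type, whereas those of 8 weeks reached from well below the wild type range up to its lower edge. Without the lysozymes Lyz1 and Lyz2 in the general sum, the homozygous hearts of 8 weeks ran from -2.17 to -1.06 and overlapped the wild type range of -1.16 to -1.09. Both forms of the ratio include Lyve1, also a marker of lymphatic endothelium. In homozygous hearts of 8 weeks the resident sum was 358 to 583 CPM with Lyve1 and 271 to 430 CPM without it. In wild type it was 118 to 153 and 101 to 130 CPM. The ratio without Lyve1 was not computed, so the 8-week ratios and shares hold only with Lyve1 included. In the surgery set the ratio was -1.91 (-1.95 to -1.72) in shams, -3.18 (-3.35 to -3.00) after ischemia-reperfusion and -1.92 (-2.18 to -1.82) after infarction, and the hearts after ischemia-reperfusion stood apart. The resident genes' median share of the summed CPM of the 3 roles was 22.2% and 8.32% in wild type and homozygous hearts of 5 weeks, 22.3% and 16.6% at 8 weeks, and 20.6%, 9.19% and 20.1% in shams, after ischemia-reperfusion and after infarction.

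The log2 ratio of the summed lipid-associated to the summed general genes was higher in each condition in which Lgals3 rose. Its median was -5.85 (-6.13 to -5.33) in wild type and -3.81 (-3.85 to -3.76) in homozygous hearts of 5 weeks, and -5.65 (-6.13 to -5.65) and -2.63 (-3.35 to -2.48) at 8 weeks. It was -5.47 (-5.59 to -5.08) in shams, -3.34 (-3.58 to -2.38) after ischemia-reperfusion and -4.10 (-4.60 to -3.95) after infarction. In all 4 contrasts the groups did not overlap. Lgals3 had the highest mean CPM of the 3 genes in each group, and fibroblasts, of whose 7 markers 7, 7, 5 and 4 were called higher in these contrasts, can also express it, a part that was not tested.

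**Figure D5:**
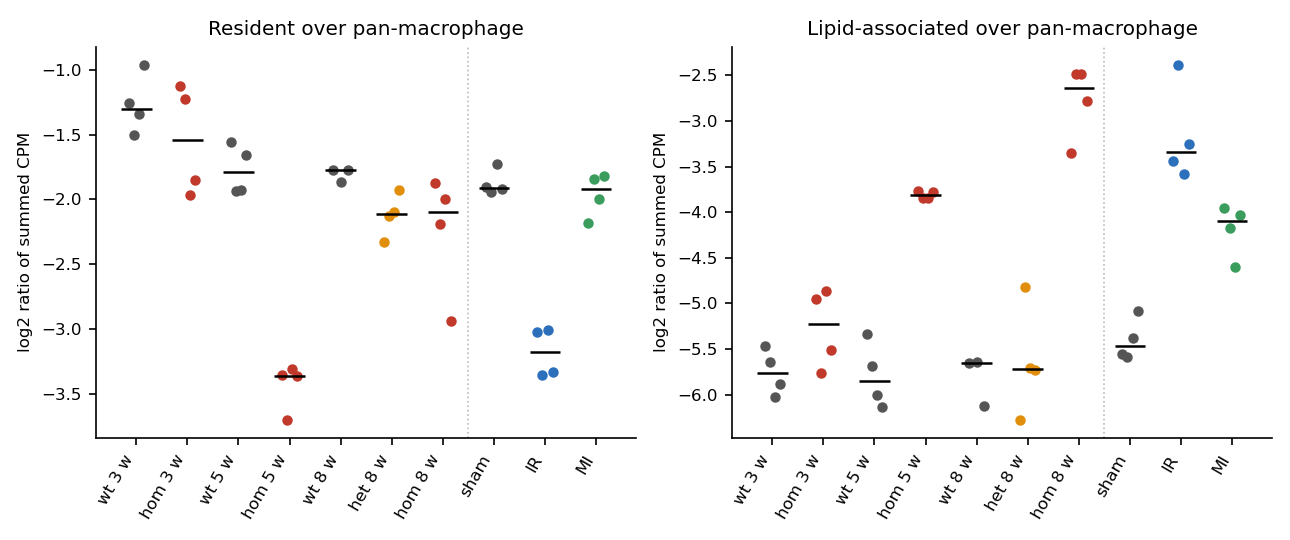
Log2 ratio of the summed CPM of the resident genes (left) and of the lipid-associated genes (right) to that of the general genes, 1 point per library with a bar at each group's median. Homozygous hearts of 5 weeks and hearts after ischemia-reperfusion have the lowest resident ratios, and homozygous hearts of 8 weeks have the highest lipid-associated ratios by group median.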

How the data were processed

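The data are RNA sequencing of the left ventricle from 39 mouse hearts. Per the labels' protocols, RNA came from Trizol extraction and was sequenced after a stranded TruSeq mRNA preparation. Reads were aligned to mm10 with STAR 2.7.3a and counted with featureCounts of Subread 2.0.0, per the submitters' processing notes, with annotation release and strand setting not given in the sources used here. The deposited values are raw counts per gene and library, with no normalization by the authors. GENCODE vM21 (GRCm38) named 36429 of 38293 gene IDs, and unnamed IDs held 0.133% of counts.

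In R 4.3.3, edgeR 4.0.16 was used for TMM scaling, filterByExpr and quasi-likelihood tests, adjusted by Benjamini-Hochberg over all genes tested at a threshold of 0.05. Each age, and the surgery set, was fitted on its own. Differences between effects, and wild type hearts of 8 against 3 weeks, were tested with all 39 libraries fitted together. A CPM value is a count as a share of the library total, on the usual CPM scale. Standard errors come from the log2 change and the F statistic (the absolute change over the root of F). For ratios to Csf1r, each library was scaled by its own Csf1r count. Ratios of low counts have exact intervals at the 95% level for counting error only. The scripts were tested on simulated data.

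The members and lists were chosen with earlier results of these data known. Values by library are given for the 6 resident, 3 lipid-associated and 3 recruited genes and for Csf1r, Adgre1 and Cd68, and of each further list 2 or 3 genes with the smallest p and those that moved the other way. Alternatives were RLE and library size scaling, DESeq2 1.42.0, no filter, all libraries in 1 fit, age-matched shams, Adgre1 as denominator, a replicate block and each library left out. Replicate numbers did not pair the samples: same-numbered libraries deviated together at over 0.1 in 3 of 22 pairs (-0.119 to 0.241).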

Additional observations from a re-analysis of the deposited data

Results flagged for a closer look

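Single libraries stood apart from the rest of their group, by the gap to the nearest library as a share of the group's range, in 12 of 134 gene and group combinations. For normally distributed values chance gives about 1 in 20, a rate that does not hold at low counts. Chil3 in shams and Arg1 in wild type hearts of 5 weeks had counts in 1 library only, which then stands apart by construction. No excess over chance is read from these combinations. Among the resident genes these were Lyve1 in wild type replicate 1 of 5 weeks, at 15.51 CPM below the others, and in infarction replicate 2, at 27.66 CPM above them. Heterozygous replicate 1 of 8 weeks was high for Adgre1 (28.98 CPM). Heterozygous replicate 2 was high for all 3 lipid-associated genes, Lgals3 at 7.533 CPM, Trem2 at 4.056 CPM and Gpnmb at 3.419 CPM. Wild type replicate 1 of 5 weeks was high for Gpnmb (3.737 CPM). The others were at low counts. Chil3 was high in wild type replicate 1 (0.7073 CPM) and homozygous replicate 1 (0.6862 CPM) of 3 weeks and in sham replicate 2 of 20 weeks (0.07528 CPM). Arg1 was high in homozygous replicate 4 of 3 weeks (0.1282 CPM) and wild type replicate 3 of 5 weeks (0.09028 CPM).

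Effects of the genotype differed between ages by the edgeR interaction test. From 5 to 8 weeks the log2 effect was higher for Lyve1 (3.06), Cd163 (2.52), Gpnmb (1.94), Mertk (1.37), Fcgr3 (0.99) and Mrc1 (0.78), and lower for Lyz1 (-2.79) and Nckap1l (-0.76). From 3 to 5 weeks it was higher for Lgals3 (4.63), Trem2 (3.25), Adgre1 (2.74), Gpnmb (2.7), Cd68 (2.33), Csf1r (1.55), Mrc1 (1.41), Folr2 (1.26) and F13a1 (1.17).

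The homozygous effect at 8 weeks differed from that of infarction for Gpnmb (3.69), Lgals3 (3.55), Trem2 (2.7), Timd4 (-2.28), Cd163 (2.04), Lyve1 (1.81), Cd68 (1.73), Mrc1 (1.42), Csf1r (1.13), Adgre1 (1.04) and F13a1 (0.67). It differed from that of ischemia-reperfusion for Timd4 (-2.04), Lyve1 (2.0), Cd163 (1.79), Fcgr1 (-1.63), Cd14 (1.19), Fcgr3 (1.0), Itgam (-0.97), Slc11a1 (-0.94), Mrc1 (0.74) and Mertk (0.69). Of the resident genes, Lyve1, Timd4, Cd163 and Mrc1 stood in both of these comparisons.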

How the results depend on the processing

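Of the single-gene results, 1017 of 1047 values under alternatives other than leaving out a library kept their direction and side of the threshold, 15 lost the call, 13 gained one and 2 reversed, and with 1 library left out 1302 of 1342 did, 34 lost it and 6 gained one. Counts stayed within 1.5 times in 207 of 228 and 267 of 300 cases. With library size scaling the median of all genes shifted by 0.21 (5 weeks), 0.16 (8 weeks), 0.20 (homozygous against heterozygous), 0.23 (ischemia-reperfusion), 0.11 (infarction) and 0.12 (between the injuries) on the log2 scale, and 1 member was lower at 5 weeks, as with all 39 libraries (1), 1 effect was lower from 5 to 8 weeks, and 11 members were higher after infarction. Infarction gave 14 with DESeq2, 14 without a filter, 12 with all 39 libraries and 12 with age-matched shams. All genes called after infarction stayed within 1.5 times the main count in each of these settings except age-matched shams. DESeq2 called 1 member lower at 3 weeks and 112 genes in all, against 25 without a filter and 40 with all libraries. Age-matched shams, with fewer samples, gave 2174 genes for ischemia-reperfusion and 853 for infarction. The wild type groups alone gave 4 members. With Adgre1 as denominator 7, 8, 11 and 1 members were higher at 5 weeks, at 8 weeks, after ischemia-reperfusion and after infarction, 7 were lower after ischemia-reperfusion, 345 genes were called after infarction, and Cd68 at 5 weeks (-0.0535) and F13a1 after ischemia-reperfusion (-0.71) reversed. The replicate block gave 29 higher and 2 lower at 5 weeks, 29 and 1 at 8 weeks, 29 and 0 after ischemia-reperfusion and 5 and 0 after infarction, where it ended the calls of Folr2 (0.60) and F13a1 (0.50) and called Gpnmb (1.68). Where not given here, the cause was not tested.

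With 1 library left out, counts ran from 0 to 4 genes at 3 weeks, 1 to 2 members lower at 5 weeks, 1 to 12 members higher and 663 to 1570 genes after infarction, and 0 to 2 members and 604 to 1157 genes between wild type ages. Relative to Csf1r they ran from 1 to 3 lower after ischemia-reperfusion and, after infarction, from 1 to 3 higher, 0 to 1 lower and 468 to 6621 genes. Timd4, Ly6c2, Chil3 and Arg1 rest on few counts, which limits their precision.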

Other observations

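Mmrn1, a marker of lymphatic endothelium, had 0 counts in all 12 libraries of the surgery set. In the 23 libraries of the first set other than the homozygous hearts of 8 weeks it had 54 to 160 counts, and in those 4 hearts it had 460 to 2194. Mmrn1 therefore gives no reading beside Lyve1 in the surgery set.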
